A study of Caenorhabditis elegans with 2 samples.

Results

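Of the 34 protein-coding genes of Caenorhabditis elegans taken here as splicing factor genes, 8 had an optimal VAB-15 peak within 2000 bp of a transcript start. The 34 were chosen by name from the 19985 protein-coding genes of the annotation: every gene called snr-, rsp-, prp-, uaf- or sftb- followed by a digit, and sfa-1. For each gene, regions from a deposited list of chromatin immunoprecipitation sequencing (ChIP-seq) signal were collected when their summit lay within 2000 bp of any of its starts. Within this set of names the name, not the signal, decided which genes entered. The set itself was chosen with earlier results of these data known. The name is the only evidence here that a gene acts in splicing, since no RNA was measured.

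VAB-15 belongs to the Msx class of homeodomain transcription factors and is known for its part in making the touch receptor neurons. All worms were of strain XIL99, in which CRISPR had inserted a GFP-FLAG tag at the C-terminus of VAB-15. They were L1 larvae of pooled sexes, starved after bleaching and used whole, and the tagged protein was recovered with an antibody to GFP. There was 1 group with 2 biological replicates, so no genotype, stage or treatment was compared and no test between conditions was possible. Signal from whole larvae does not say which cells it came from, and no worms without the tag were analysed here.

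Splicing removes introns from transcripts in steps carried out by small nuclear ribonucleoproteins (snRNPs) and many further proteins. The snr genes encode the Sm proteins, which form a ring on the snRNAs. The rsp genes encode SR proteins, which bind exons and help to recruit the machinery. The uaf genes and sfa-1 encode the proteins that recognise the end of the intron, and sftb genes encode subunits of SF3b within the U2 snRNP. The prp genes encode assorted factors of assembly, activation and catalysis. Splicing is needed in every cell type, and most transcripts of this worm are also trans-spliced to a short leader exon.

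The authors deposited a pooled list of 30000 regions made from both replicates, which holds background by construction, and an optimal set of 990 peaks chosen for reproducibility with the irreproducible discovery rate (IDR). These were the 990 strongest of the pooled list by the authors' signal. A list of 30000 regions was also deposited for each replicate. The signal has no stated unit and was not scaled between lists, so values are compared within a list and ranks are given beside them. The depth is unknown, as the lists carry no read counts.

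The share of splicing factor genes with an optimal peak was 23.5% (8 of 34, exact Clopper-Pearson 95% interval 10.7 to 41.2), beside 6.61% of all protein-coding genes by the same rule. The interval covers counting error over genes only, and it treats genes as independent although rsp-1 and rsp-2 share a peak. A further 6 genes had a region with a deposited q-value at or under 0.01 but no optimal peak. Together 14 of 34 (41.2%) reached that q-value, beside 11.9% of all genes. Another 18 genes had only weaker regions, whose strongest had signals of 35.3 to 81.7, and 2 genes, snr-5 and prp-38, had no region in the pooled list. A region of any strength lay near 32 of 34 (94.1%), beside 62.8% of all genes. No test of these shares was made, because peaks and genes are not replicates of a condition.

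**Figure D1:**
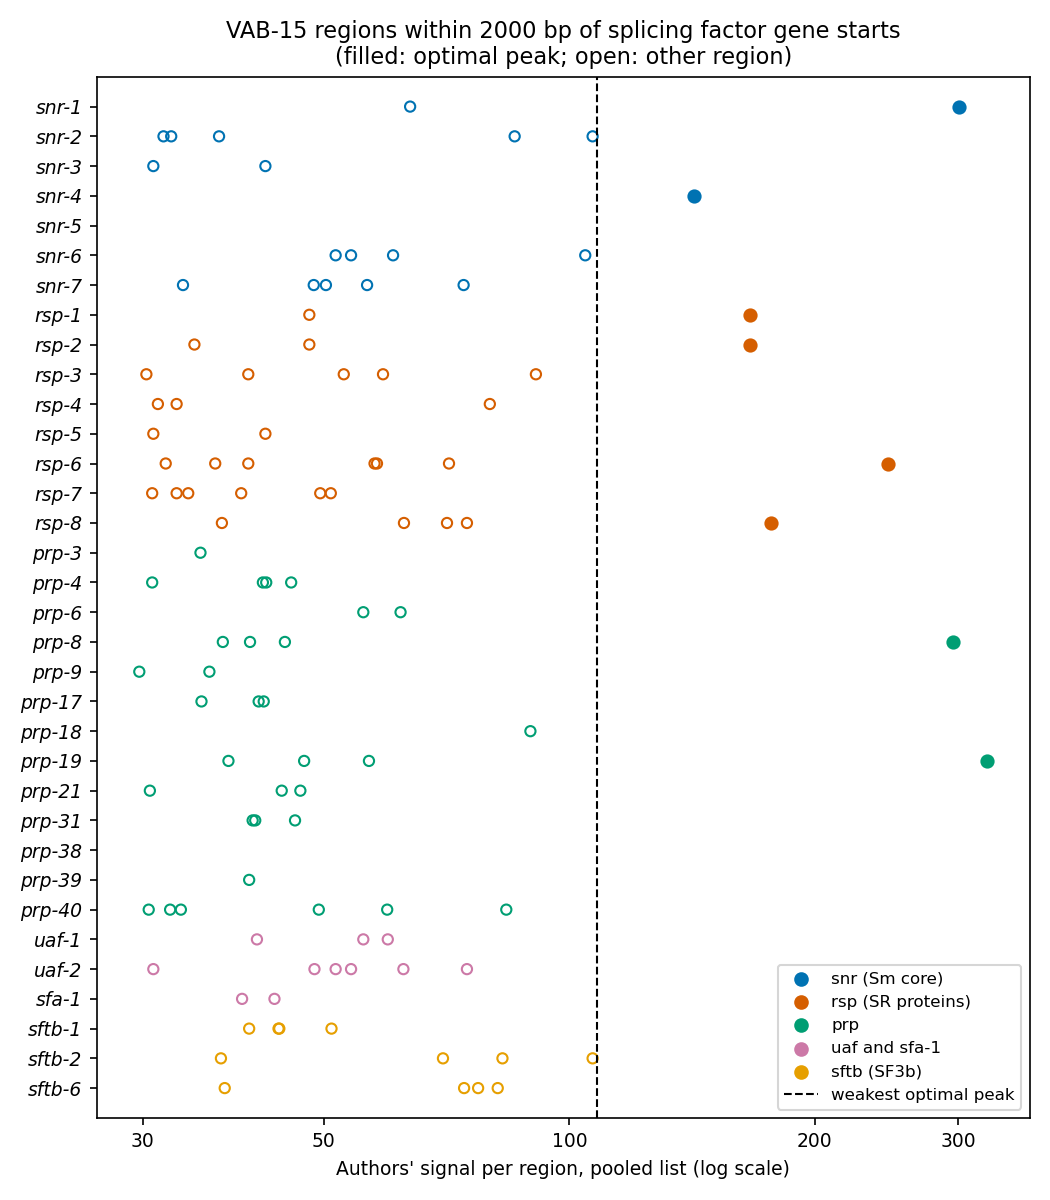
Each circle is a region of the pooled list within 2000 bp of a start of the gene named on the vertical axis, placed by the authors' signal (log scale, no stated unit). Filled circles are optimal peaks and open circles other regions, and the dashed line marks the weakest optimal peak at 108.24. The 8 genes with filled circles have 1 each, at 142.0 to 325.5, and snr-2, snr-6 and sftb-2 have open circles just left of the line.

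By family, an optimal peak lay near 4 of 8 rsp genes (50%), 2 of 7 snr genes (28.6%) and 2 of 13 prp genes (15.4%). The share of all protein-coding genes was 6.61%. The peak shared by rsp-1 and rsp-2 was counted for both. None of the 2 uaf genes, the 3 sftb genes or sfa-1 had an optimal peak. With so few genes the exact 95% intervals were wide and overlapped, 15.7 to 84.3% for rsp, 3.67 to 71.0% for snr and 1.92 to 45.4% for prp. They were 0 to 84.2% for uaf, 0 to 70.8% for sftb and 0 to 97.5% for sfa-1. Apart from that of rsp, each interval held the 6.61% of all genes. The order also changed with the rule. For optimal peaks among the 990 strongest regions of both replicates, the counts were 2 of 8 rsp genes (25%), 1 of 7 snr genes (14.3%) and 2 of 13 prp genes (15.4%). The share of all genes by that rule was 3.83%. Whether the families differ was not tested.

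The sequences under the 7 optimal peaks are shown because they are the DNA on which the count of 8 genes rests. Each is the reference sequence of the ce11 build (WBcel235, from RefSeq) on the plus strand, 5′ to 3′, the pooled summit with 50 bases on either side. That of prp-19 is shortened to 87 bases to leave out annotated UTR. Capitals mark 6-mers, on either strand, from a set of 6 that were searched on both strands. The homeodomain core TAATTG was one. The GC-rich words were GAGCGC as the first, ACGCGC as the second, AGCGCG as the third, ACGCAG as the fourth and GCGCAC as the fifth.

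prp-19, chrIII:5172633-5172719: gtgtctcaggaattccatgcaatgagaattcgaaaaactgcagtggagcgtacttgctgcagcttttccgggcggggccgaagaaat
snr-1, chrIV:17087612-17087712: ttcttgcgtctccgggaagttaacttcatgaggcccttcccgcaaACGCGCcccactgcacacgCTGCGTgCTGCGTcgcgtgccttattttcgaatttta
prp-8, chrIII:8164010-8164110: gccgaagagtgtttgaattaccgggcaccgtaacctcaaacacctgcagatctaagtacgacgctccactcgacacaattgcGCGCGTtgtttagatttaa
rsp-6, chrIV:7791343-7791443: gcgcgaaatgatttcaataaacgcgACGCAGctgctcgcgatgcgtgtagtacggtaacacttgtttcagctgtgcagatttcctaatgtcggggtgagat
rsp-8, chrIII:11825801-11825901: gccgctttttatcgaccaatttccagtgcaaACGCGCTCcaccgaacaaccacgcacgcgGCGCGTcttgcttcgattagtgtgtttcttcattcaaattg
rsp-1 and rsp-2, chrII:11453145-11453245: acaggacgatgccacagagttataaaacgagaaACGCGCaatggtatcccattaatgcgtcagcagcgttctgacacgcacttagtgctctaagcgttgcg
snr-4, chrV:11980023-11980123: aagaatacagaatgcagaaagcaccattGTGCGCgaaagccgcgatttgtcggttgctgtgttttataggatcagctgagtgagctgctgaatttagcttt

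The core TAATTG was in 0 of the 7 windows (exact 95% interval 0 to 41.0%), beside 10.4% of the windows at all 990 optimal summits and 7.09% of those at all 30000 pooled summits. Its absence says only that these letters are not in these windows. With 100 bases on either side it was in 2 of 7, beside 17.5% and 13.5%. The shorter core TAAT was in 4 of the 7 windows, beside 48.3% of all optimal and 52.7% of all pooled windows.

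The word ACGCGC was in 4 of the 7 windows (57.1%, exact 95% interval 18.4 to 90.1%), those of snr-1, prp-8, rsp-8 and the shared peak of rsp-1 and rsp-2. Over all optimal summits its share was 12.7% and over all pooled summits 2.64%. With 100 bases on either side it was in 6 of 7, beside 17.2% and 4.51%. ACGCAG was in 2 of 7, those of snr-1 and rsp-6. Each of the other three GC-rich words was in 1 of 7, the first and the third in the rsp-8 window and the fifth in that of snr-4. In the rsp-8 window the first and the third overlapped the second, so those matches share bases, while the second also had a separate match further along. The GC-rich words were taken from an earlier count over all 990 peaks, these 7 included, and of the 5 words ACGCGC is singled out after its count was seen, so the shares are a description with no test. The windows of the 7 peaks had a median GC content of 49.5% (44.6 to 55.4%), beside 46.5% at all optimal and 40.6% at all pooled summits, and how far base composition accounts for the counts was not tested.

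Among the Sm genes, snr-1 and snr-4 carried optimal peaks. snr-1 encodes SmD3 (WBGene00004914, chromosome IV, plus strand, 17088049 to 17088946). Its peak at chrIV:17087583-17087711 had a signal of 300.2 in the pooled list, 227.2 in replicate 1 and 79.3 in replicate 2. It ranked 46, 33 and 84 in those lists, near the top of each. The summit lay 387 bp upstream of the snr-1 start, in the interval between snr-1 and the divergent gene snx-13, whose start was closer at 224 bp. snr-4 encodes SmD2 (WBGene00004917, chromosome V, minus strand, 11978508 to 11979723). Its peak at chrV:11979885-11980260 had a signal of 142.0 in the pooled list, 111.8 in replicate 1 and 32.2 in replicate 2. The ranks were 515, 376 and 1927, so replicate 1 held it among its 990 strongest regions and replicate 2 did not. It lay 350 bp upstream of snr-4, and no other gene had a closer start.

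A pair of further Sm genes came just short of the optimal set. The weakest optimal peak, rank 990, had a signal of 108.24, and the strongest region outside it had 108.19. snr-2, which encodes SmB, had a region of rank 1022 with a signal of 106.8, its summit 626 bp upstream, and a second of rank 1924 with 85.7, 408 bp upstream. Both summits were closer to W08E3.4, the divergent neighbour, at 140 and 58 bp. The stronger ranked 1482 in replicate 1 (signal 67.5) and 1321 in replicate 2 (signal 35.9). The weaker ranked 2710 and 1700, so neither replicate placed them among its 990 strongest. snr-6, which encodes SmE, had a region of rank 1085 with a signal of 104.6 at chrIII:12429713-12430088, 272 bp upstream of its start. It ranked 913 in replicate 1, with a signal of 80.2, and 5905 in replicate 2, with 23.4.

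The other 3 Sm genes had no pooled region with q at or under 0.01. snr-7, for SmG, had a strongest region of rank 2965 (signal 74.2), 163 bp downstream of the start. snr-3, for SmD1, had a strongest region of rank 14307 (signal 42.4). snr-5, for SmF, had no region in the pooled list, and the only regions near it in the replicate lists ranked 23863 in replicate 1 and 27927 in replicate 2. The products of the 7 genes sit in the same ring, and the signal near the genes ran from rank 46 to no region at all.

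Among the SR protein genes, rsp-6 had the strongest peak. rsp-6 encodes a relative of human SRSF3 (WBGene00004703, chromosome IV, minus strand, 7789847 to 7791229). Its peak at chrIV:7791205-7791580 had a signal of 245.6 in the pooled list, 166.0 in replicate 1 and 75.1 in replicate 2. It ranked 97, 117 and 105, nearly the same place in every list. The summit lay 164 bp upstream of rsp-6, which was the closest start. With 7 regions within 2000 bp, rsp-6 had more than any other of the 34 genes. The next strongest of these had a signal of 71.2, and 4 of the 7 lay closest to imp-3 on the 3′ side.

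rsp-8 had a peak at chrIII:11825663-11826038 with a signal of 176.7 in the pooled list, 128.1 in replicate 1 and 47.8 in replicate 2. It ranked 280, 261 and 533, within the 990 strongest of both replicates. The gene (WBGene00004705) lies on the plus strand of chromosome III from 11826418 to 11830974. The summit lay 567 bp upstream of its first start, and no other gene had a start within 2000 bp, which makes it the only one of the 7 peaks with a single candidate gene by that distance.

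rsp-1 and rsp-2 are neighbours transcribed away from each other (WBGene00004698 and WBGene00004699, chromosome II), with 406 bp between them. A single peak at chrII:11453007-11453382 lay between them and was counted for both. Its signal was 166.5 in the pooled list, 137.3 in replicate 1 and 24.4 in replicate 2. It ranked 330 and 214 in the pooled list and replicate 1, and the region at the same place ranked 5159 in replicate 2. The strongest region of replicate 2 near the pair was another one, of rank 1027 with a signal of 38.5, whose summit was 45 bp downstream of the rsp-2 start. The pooled summit was 240 bp upstream of rsp-2 and 779 bp upstream of the closest protein-coding start of rsp-1. A noncoding transcript annotated to rsp-1 starts closer, 167 bp from the summit.

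The remaining 4 SR genes had no optimal peak. rsp-3, which encodes the relative of human SRSF1 known as SF2 or ASF, had a region of rank 1611 with a signal of 91.0 at chrIII:12687427-12687802, inside the gene and 301 bp downstream of its start. It ranked 1610 in replicate 1, with a signal of 65.6, and 1455 in replicate 2, with 34.9. rsp-4, the relative of human SRSF2, had a strongest region of rank 2389 (signal 79.9), 1307 bp upstream and closer to ndx-6, with no matching region in replicate 2. rsp-7 and rsp-5 had strongest regions of rank 8648 and 14307, the second with a signal of 42.4. rsp-5 stands head to head with snr-3, 403 bp apart, and the pair shared both of their regions. The arrangement is like that of rsp-1 and rsp-2, where the shared region was an optimal peak of signal 166.5.

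**Figure D2:**
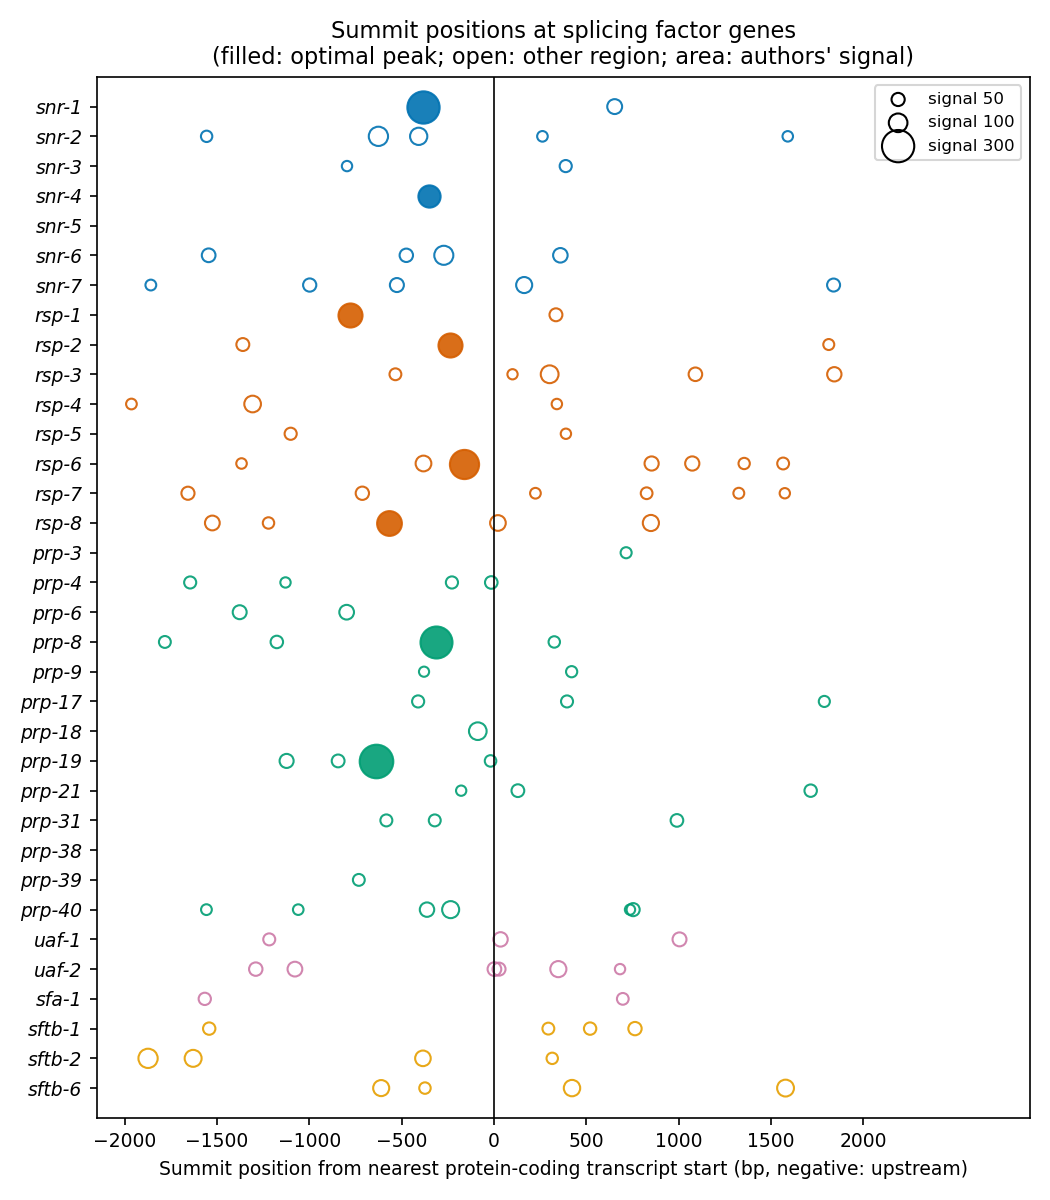
Summit positions of all pooled regions within 2000 bp of each splicing factor gene, in bp from its nearest protein-coding start with upstream to the left; circle area is the authors' signal, and filled circles are optimal peaks. All 8 filled circles lie upstream, 164 to 779 bp from the start, while open circles lie on both sides.

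Of the 13 prp genes, prp-19 and prp-8 had optimal peaks, both strong. prp-19 encodes a ubiquitin ligase that anchors a complex needed for activation of the spliceosome (WBGene00020423, chromosome III, minus strand, 5169933 to 5172045). Its peak at chrIII:5172584-5172778 was the strongest near any of the 34 genes, with a signal of 325.5 in the pooled list, 226.0 in replicate 1 and 95.7 in replicate 2. It ranked 32, 34 and 41. The summit lay 638 bp upstream of prp-19 but 37 bp from the start of its divergent neighbour K10D2.5, and emb-1 and cid-1 also had starts within 2000 bp. The region nearest the prp-19 start itself, 19 bp upstream, ranked 18275 with a signal of 38.2.

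prp-8 encodes the large U5 snRNP protein at the heart of the catalytic centre (WBGene00004187, chromosome III, plus strand, 8164373 to 8172710). Its peak at chrIII:8163978-8164133 had a signal of 295.2 in the pooled list, 209.8 in replicate 1 and 81.3 in replicate 2. It ranked 48, 45 and 77. The summit was 313 bp upstream of prp-8, which had the closest start, and bath-42 lies on the other side, transcribed away.

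Another 2 prp genes had regions with a q-value at or under 0.01. prp-18, a factor of the second catalytic step, had a region of rank 1688 with a signal of 89.6 at chrIV:9884283-9884658, 88 bp upstream of its start. It ranked 924 in replicate 1, with a signal of 79.7, and had no match in replicate 2. prp-40, a U1 snRNP-associated protein, had a region of rank 2052 with a signal of 83.7 at chrIII:9521652-9522027, 235 bp upstream. It ranked 1080 in replicate 1, with a signal of 75.7, and 29154 in replicate 2, with 12.6. Both regions thus stood higher in replicate 1. The other 9 prp genes had strongest signals of at most 62.1 (prp-6, rank 4985) or, for prp-38, no pooled region. They include prp-3, prp-4 and prp-31 of the U4/U6 snRNP, with signals of 35.3, 45.6 and 46.1, and prp-9 and prp-21 of SF3a, with 36.2 and 46.8. The remaining prp-17, a factor of the second step, and prp-39 of the U1 snRNP had 42.2 and 40.5.

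The genes whose products recognise the 3′ splice site and branch point had weak regions. uaf-1, the large subunit of U2AF, had a strongest region of rank 5508 (signal 59.9), 35 bp downstream of a start. uaf-2, the small subunit, had 6 regions, the strongest of rank 2885 (signal 74.9). sfa-1, the branch point binding protein SF1, had regions of rank 13419 and 16766 (signals 43.5 and 39.7). snr-1, sfa-1 and uaf-2 lie along the same stretch of chromosome IV, with 14878 bp from snr-1 to sfa-1 and 5788 bp from sfa-1 to uaf-2, so the strong snr-1 peak and these weak regions come from the same neighbourhood.

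Of the SF3b genes, sftb-2 came closest to the optimal set. Its region of rank 1023 at chrV:126176-126551 had a signal of 106.8 but lay 1873 bp upstream, in a coding exon of W03F9.1, whose start was 354 bp away. It ranked 1163 in replicate 1, with a signal of 73.5, and 2338 in replicate 2, with 30.4, and a weaker region of rank 2126 lay beside it. With 50 bases on either side of its summit the window held TAATTG, as its first bases. At that width it was the only one of the regions with q at or under 0.01 near the 34 genes to hold the word. sftb-6 had strongest regions of rank 2228 and 2626 (signals 81.7 and 77.3), and sftb-1, the homologue of human SF3B1, had none above rank 8618 (signal 51.1).

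All 7 optimal peaks lay in promoters, here 1 to 1000 bp upstream of a protein-coding start of any gene. They were collected for lying within 2000 bp of a start, which favours this class. The promoter share over all optimal peaks is not given here, so this is a description only. All 8 pairs of a peak and a splicing factor gene had the peak upstream, beside 82.7% of the 1399 such pairs over all genes. The median distance was 368.5 bp (164 to 779), beside 419.0 bp over all genes. Within 1000 bp the count was still 8 of 34, beside 4.83% of all genes, and within 500 bp it was 5 of 34 (14.7%), beside 3.7% of all genes. The 3 lost at 500 bp were rsp-1, rsp-8 and prp-19. Of the 105 pooled regions of any strength near the 34 genes, 66 lay in promoters, 25 in coding exons, 6 in introns, 5 in 3′ UTRs and 3 in intergenic sequence. The same limit holds for these, as the shares over all pooled regions are not given here.

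Some of the peaks lay closer to the start of a neighbour. When each peak counted only for the gene with the nearest start, 5 splicing factor genes kept one (prp-8, rsp-2, rsp-6, rsp-8 and snr-4), which is 14.7%, beside 3.88% of all genes. The peaks of snr-1 and prp-19 went to snx-13 and K10D2.5. Of the 34 genes, 25 (73.5%) have their upstream neighbour on the opposite strand, head to head, beside 46.2% of 19979 protein-coding genes with such a neighbour. Among all genes with an optimal peak the head-to-head share was 62.6%, and among the 8 splicing factor genes with one it was 5 of 8. How far this arrangement accounts for the counts was not tested.

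Both replicates held the peaks of 5 of the 8 genes. prp-19, prp-8, snr-1, rsp-6 and rsp-8 had their optimal peak in the 990 strongest regions of both replicates, which is 14.7% of the 34, beside 3.83% of all genes. Those of snr-4 and of the rsp-1 and rsp-2 pair were in the 990 strongest of replicate 1 only. Taking the replicates' own lists, 10 of 34 (29.4%) had 1 of the 990 strongest regions of replicate 1 nearby, beside 6.57% of all genes, and 5 of 34 (14.7%) of replicate 2, beside 6.13%. The additional genes in replicate 1 were prp-18 and snr-6. Counting only optimal peaks at or above the median signal of the set left 7 of 34 (20.6%), beside 3.67% of all genes, with snr-4 the one lost. The pooled list holds the reads of both replicates, so its overlap with either is not independent.

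**Figure D3:**
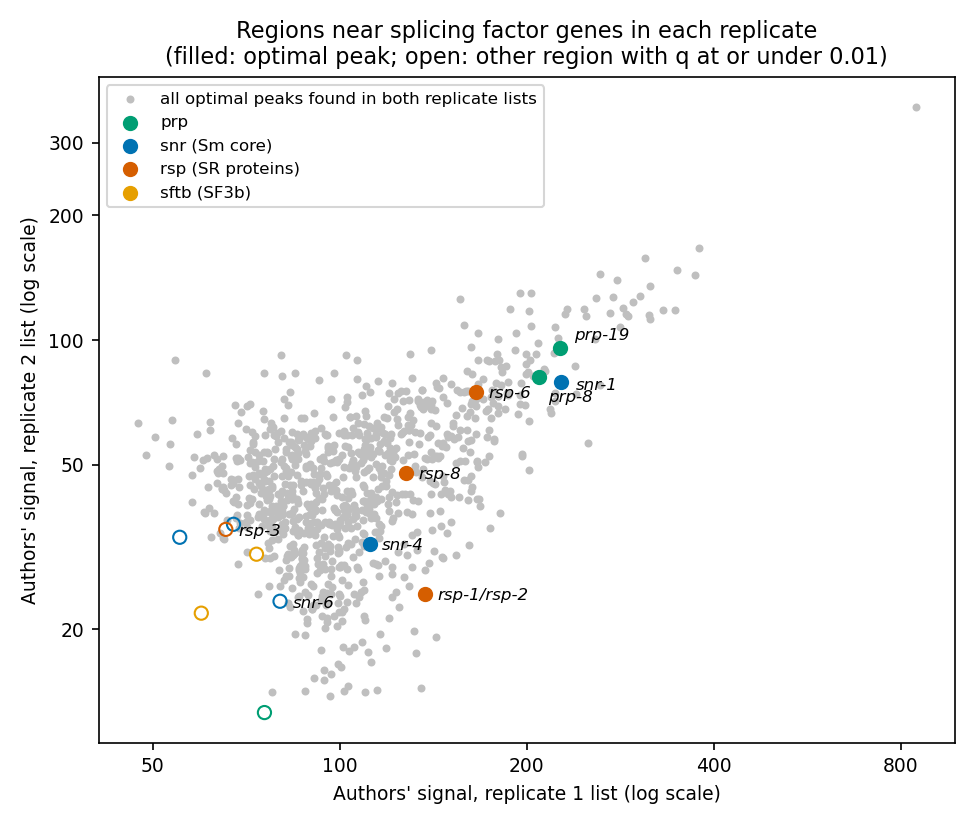
Authors' signal in the replicate 1 list (horizontal) and the replicate 2 list (vertical), both on log scales, for the regions that hold a pooled summit. Grey points are optimal peaks found in both lists and coloured points are regions near splicing factor genes; prp-19, snr-1, prp-8 and rsp-6 lie in the upper right, and the shared rsp-1 and rsp-2 peak lies low, at 137.3 and 24.4.

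Over regions of any strength, optimal peaks included, 32 of the genes could be ranked. The median rank of the strongest region of each was 2637, beside 9029 over the 12547 protein-coding genes with a region. The 34 genes had a median of 3 regions each, at most 7, beside 1 over all genes. Of the 34, 11 (32.4%) had more than 1 protein-coding start, beside 26.3% of all genes. Expression was not measured here, and its part in these ranks was not tested.

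**Figure D4:**
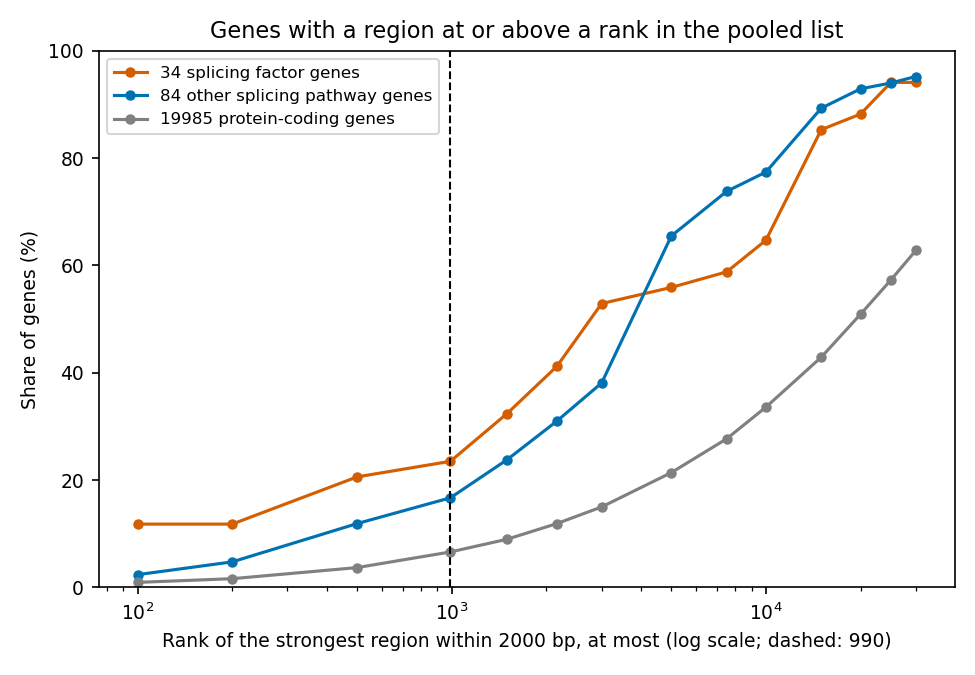
Share of genes (vertical axis, %) whose strongest pooled region within 2000 bp has at most the rank on the horizontal axis (log scale), for the 34 splicing factor genes, 84 other splicing pathway genes and all 19985 protein-coding genes. At rank 990 (dashed) the shares are 23.5%, 16.7% and 6.61%, and at rank 30000 they are 94.1%, 95.2% and 62.8%.

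Other genes of the splicing pathway were read from a list of 93 names written with earlier results of these data known, of which 84 matched a protein-coding gene. Of the 84, 14 (16.7%, exact 95% interval 9.42 to 26.4) had an optimal peak within 2000 bp, beside 6.61% of all genes, and 26 (31.0%) a region with q at or under 0.01, beside 11.9%. The helicase genes, which remodel RNA and protein contacts, had an optimal peak at 3 of 10 (30%, exact 95% interval 6.67 to 65.2). hel-1, the relative of UAP56, had the first-ranked peak of the whole list, with a signal of 1191.2 at 267 bp upstream. mog-4, a DEAH-box helicase, followed with 245.9 at 197 bp upstream, and ddx-15 had 116.9 at 230 bp upstream, closer to ucr-1 and with no matching region in replicate 2.

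Other components of the spliceosome had an optimal peak at 8 of 29 (27.6%, exact interval 12.7 to 47.2), beside 6.61% of all genes. The strongest was rbm-39, for an RNA-binding protein, with a signal of 236.3 and a summit 15 bp upstream. teg-1 (194.1), plrg-1 (183.6), cyn-4, a cyclophilin (172.0), and smu-2 (169.1) followed, each with a start at most 228 bp from the summit. plrg-1 encodes a partner of PRP-19, and it lies 106 bp upstream of prp-38 on the same strand, the gene without any pooled region. rsr-1 (136.3), spk-1, the kinase of SR proteins (124.7), and rsr-2 (111.3) had weaker peaks. The rsr-1 peak, 478 bp upstream, was closer to sri-5, and the rsr-2 peak, 656 bp upstream, was closer to pqn-87. In replicate 1 and replicate 2 rsr-1 ranked 431 and 5454, spk-1 468 and 13907, and rsr-2 2993 and 318, so each was among the 990 strongest of 1 replicate only.

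The snRNP and Sm-like proteins outside the snr family had 1 of 22 (4.55%, exact 95% interval 0.115 to 22.8), beside 6.61% of all genes. The gene was lsm-3, with a signal of 170.2 at 911 bp upstream, closer to Y62E10A.23. With q at or under 0.01 the class had 4 of 22 (18.2%, interval 5.19 to 40.3), beside 11.9% of all genes. Regulators of alternative splicing had 2 of 19 with an optimal peak (10.5%, exact 95% interval 1.3 to 33.1, which holds the share of all genes). These were swp-1, with 198.7 at 897 bp upstream and closer to the ribosomal protein gene rpl-23, and fust-1, with 176.5 at 425 bp upstream. With q at or under 0.01 the regulators had 6 of 19 (31.6%, interval 12.6 to 56.6), beside 11.9% of all genes. By the 990 strongest regions of replicate 1 they had 6 of 19 (31.6%), beside 6.57% of all genes. By those of replicate 2 they had 5 of 19 (26.3%), beside 6.13%. All 84 pathway genes together had 17 (20.2%) by replicate 1 and 15 (17.9%) by replicate 2. An optimal peak among the 990 strongest regions of both replicates lay near 2 of 19 regulators (10.5%), beside 3.83% of all genes. The 4 genes of snRNP assembly had no optimal peak, where the exact 95% interval reaches 60.2%. Of the 14 peaks, 9 genes had the nearest start. As with the 34 named families, none of these shares was tested.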

How the data were processed

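VAB-15 ChIP-seq peak lists from 2 biological replicates of 1 group were used on build ce11. Per the notes deposited beside the lists, each list of 30000 regions was made as input for the IDR procedure, from 1 replicate or both, with a further file also used for control-normalized tracks, and the optimal set derives from all 3 lists. Which aligner and caller were used, and with what thresholds, is not given in the sources used here. The deposited signal per region is the authors' own value, and the −log10 q-value, also deposited, marks regions with q at or under 0.01. Lists on ce10 were not used here.

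Starts are the 5′ ends of protein-coding transcripts in Ensembl release 115 (WBcel235). Every region end fitted within the reference chromosomes. A summit was linked to each gene with a start within 2000 bp. A pooled region was matched to the strongest replicate region that held its summit. Sequence came from the RefSeq genome of the same assembly, and none from chromosome I is shown. Every member is named. For those with q at or under 0.01, the strongest region is given with signal, summit distance and any matching replicate ranks and signals. Single q-values are not printed, and second regions have fewer values. Of other pathway genes, those with an optimal peak are named. Leaving out a replicate, other distances, start sets, thresholds and windows were tried. The linking step was checked on planted summits. The members and lists were chosen with earlier results of these data known. Shares have exact Clopper-Pearson intervals, which cover counting error only, and no hypothesis test was made. Python 3.11.15, pandas 2.3.3 and scipy 1.17.1 were used.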

Additional observations from a re-analysis of the deposited data

How the results depend on the processing

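The count of 8 genes with an optimal peak was also 8 within 1000 bp, from gene records alone, from all transcripts (added after the data were seen) and without replicate 2, and 7 among peaks at or above the median signal. It was 5 within 500 bp, 5 with the nearest start only, 5 for peaks that both replicates placed among their 990 strongest (also added) and 14 for pooled regions with q at or under 0.01. Leaving out replicates gave 5 to 8, where only optimal peaks, chosen with both replicates, could count, so 8 was the most possible. The 990 strongest regions of replicate 1 by themselves gave 10, with prp-18 and snr-6 added, and those of replicate 2 gave 5. The 5 left without replicate 1 were prp-19, prp-8, rsp-6, rsp-8 and snr-1. The 32 genes with any pooled region ranged from 28 to 32 over all alternatives. The 5 genes whose strongest region was among the strongest of both replicates became 8 with the 2000 strongest, were 4 with a shorter list and were again 5 when matched by overlap. A longer list can only keep or raise such a count. Shares of all genes at these settings, and at the alternatives for the 32 genes, are not given here, so the counts are a description only. The median distance of 368.5 bp was 331.5 bp from gene records and 313.0 bp with the nearest start only, and 368.5 to 387.0 bp when leaving out replicates. TAATTG, in 0 of 7 windows, was in 2 of 7 with 100 bases on either side and in 0 with 25. The longer window holds more bases. The gene record of rsp-1 begins at a noncoding transcript 167 bp from the summit, which shortens its distance from 779 bp. No paired analysis was possible because there was 1 group. Depth is unknown and limits what weak regions can show.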
